A study of Mus musculus with 9 samples.

Results

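Chemokines are small secreted or membrane-tethered proteins that draw leukocytes along a gradient, and they are sorted into the CC, CXC and CX3C classes by the spacing of their first cysteines. They act through receptors coupled to inhibitory G proteins, while the atypical receptors Ackr1 to Ackr4 bind and remove or carry chemokines without that signal. In the ovary, chemokines are known for bringing leukocytes to the follicle around ovulation and to the regressing corpus luteum. Their genes were examined here in RNA of the whole ovary from 15-week-old mice of the inbred strain C57BL/6J.

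The mice had been on a diet for 10 weeks, and 3 groups of 3 animals were sequenced. HFOB mice became obese on a diet with 60% fat, HFLN mice stayed lean on the same diet, and Control mice ate standard chow with 16% fat. The diet-fed animals were placed in HFOB or HFLN by how their weight responded and not by assignment. The authors deposited 1 FPKM value per group (fragments counted per kilobase of transcript and scaled by the mapped fragments), with a lower and an upper bound whose confidence level is not stated. No per-animal values were used, so no difference below has a replicate test, and the spread between animals enters only through the deposited interval.

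Members were chosen by symbol: names starting Ccl, Cxcl, Ccr or Cxcr followed by a number, plus Cx3cl1, Cx3cr1 and Ackr1 to Ackr4. The annotation holds 60 such symbols, 56 had a row in the table, and 37 of these reached at least 0.5 FPKM in a group and are described. They comprise 25 ligands, 8 signalling receptors and 4 atypical receptors. Just inside that level were Ccl24 and Ccr1, with a highest group value of 0.514 and 0.585 FPKM, and just outside were Ccr10 and Cxcl13, at 0.449 and 0.399 FPKM. Of the 19 symbols below it, 9 are signalling receptors and 10 are ligands, and 4 (Ccl19, Ccl26, Ccl27b and Cxcr1) were listed at 0 in every group. No row was matched to Ccl21a, Ccl21b, Ccl21d or Cxcl11. Ovarian marker genes were high in all groups: the granulosa gene Inha stood at 1465, 1360.4 and 1712 FPKM in HFOB, HFLN and Control, and the oocyte gene Gdf9 at 56.3, 50.7 and 51.4 FPKM. Some macrophage and monocyte markers were abundant as well, such as the complement gene C1qa at 123, 115 and 117 FPKM. Others were low, such as Ly6c2 at 1.21, 1.68 and 1.03 FPKM. T-cell, B-cell, NK-cell and neutrophil markers were low.

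Promoter sequences of 4 ligands are shown because Cxcl10 and Ccl12 were past 1.5-fold in a comparison, Cxcl9 lies next to Cxcl10 and is bound by the same receptor, and Cxcl1 is a classical target of inflammatory signals. They are the 250 bases before the start site on the gene's own strand, 5′ to 3′, from RefSeq on GRCm38.p6, the assembly behind mm10. Capitals mark matches on either strand to 3 patterns. They are GGG, any 3 bases and TTCC (a form of the NF-kB site), GAAA, any 2 bases and GAAA (a form of the interferon-stimulated response element), and TGANTCA (the AP-1 site). Positions are chr5:92348890-92349139 on the minus strand for Cxcl10, chr5:92328080-92328329 on the minus strand for Cxcl9, chr5:90890995-90891244 on the plus strand for Cxcl1 and chr11:82101595-82101844 on the plus strand for Ccl12.
Cxcl10: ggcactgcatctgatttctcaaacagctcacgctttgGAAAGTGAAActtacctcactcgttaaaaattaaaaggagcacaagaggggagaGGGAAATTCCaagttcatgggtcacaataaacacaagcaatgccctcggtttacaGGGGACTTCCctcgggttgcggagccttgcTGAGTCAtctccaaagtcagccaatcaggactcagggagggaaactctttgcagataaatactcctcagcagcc
Cxcl9: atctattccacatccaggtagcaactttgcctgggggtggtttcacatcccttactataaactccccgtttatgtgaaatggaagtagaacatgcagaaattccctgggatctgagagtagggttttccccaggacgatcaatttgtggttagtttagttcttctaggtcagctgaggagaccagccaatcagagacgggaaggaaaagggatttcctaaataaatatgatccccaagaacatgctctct
Cxcl1: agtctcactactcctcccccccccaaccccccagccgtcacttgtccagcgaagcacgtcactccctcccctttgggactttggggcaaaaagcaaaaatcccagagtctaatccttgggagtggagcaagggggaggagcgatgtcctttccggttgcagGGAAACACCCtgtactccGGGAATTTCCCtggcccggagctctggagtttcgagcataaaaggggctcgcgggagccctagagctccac
Ccl12: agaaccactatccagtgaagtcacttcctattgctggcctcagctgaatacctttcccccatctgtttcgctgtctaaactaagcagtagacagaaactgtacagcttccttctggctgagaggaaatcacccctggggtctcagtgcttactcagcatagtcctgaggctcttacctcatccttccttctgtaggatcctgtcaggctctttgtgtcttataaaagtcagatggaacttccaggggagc

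The Cxcl10 window held a match to each of the 3 motifs. Its interferon-type match began 213 bases before the start site, its NF-kB-type matches 159 and 104 bases before it, and its AP-1 match 74 bases before it. The Cxcl1 window held 3 NF-kB-type matches, 2 of which overlap on opposite strands, beginning 89, 71 and 70 bases before the start. None of these letter patterns was in the Cxcl9 or Ccl12 window. The promoter table had 26 of the 37 members, with 29 start sites, and lacked 11, among them Ccl2, Ccl4, Ccl5, Ccl7, Ccl11, Ccl21c, Ccl24, Ccr7, Cxcl16 and Cxcl17. The NF-kB-type pattern was in 10.3% of the members' windows (Ccl9, Cxcl1, Cxcl10) and in 4.65% of all 32851. The interferon-type pattern was in 6.9% (Cxcl10, Cxcl14) and 2.98%, and the AP-1 pattern in 10.3% (Ccl9, Ccl27a, Cxcl10) and 6.75%. A match describes the letters in the window and no binding.

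The RNA of the family was dominated by a pair of CXC ligands that many tissues make at all times. Cxcl14, an epithelial and stromal chemokine, stood at 87.6 FPKM in HFOB (deposited interval 58.8 to 116), 77.5 in HFLN (51.7 to 103) and 102 in Control (66.1 to 139). Cxcl12, the stromal ligand that retains cells bearing Cxcr4, stood at 70.3 FPKM in HFOB (44.8 to 95.9), 98.9 in HFLN (58.1 to 140) and 84.0 in Control (49.5 to 118). Cxcl14 was highest in Control and Cxcl12 was highest in HFLN, and for each gene the intervals of all groups overlapped. Together they held 62.2% of the summed FPKM of the 25 ligands in HFOB, 65.3% in HFLN and 65.4% in Control. That sum was 254, 270 and 285 FPKM in HFOB, HFLN and Control.

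**Figure D1:**
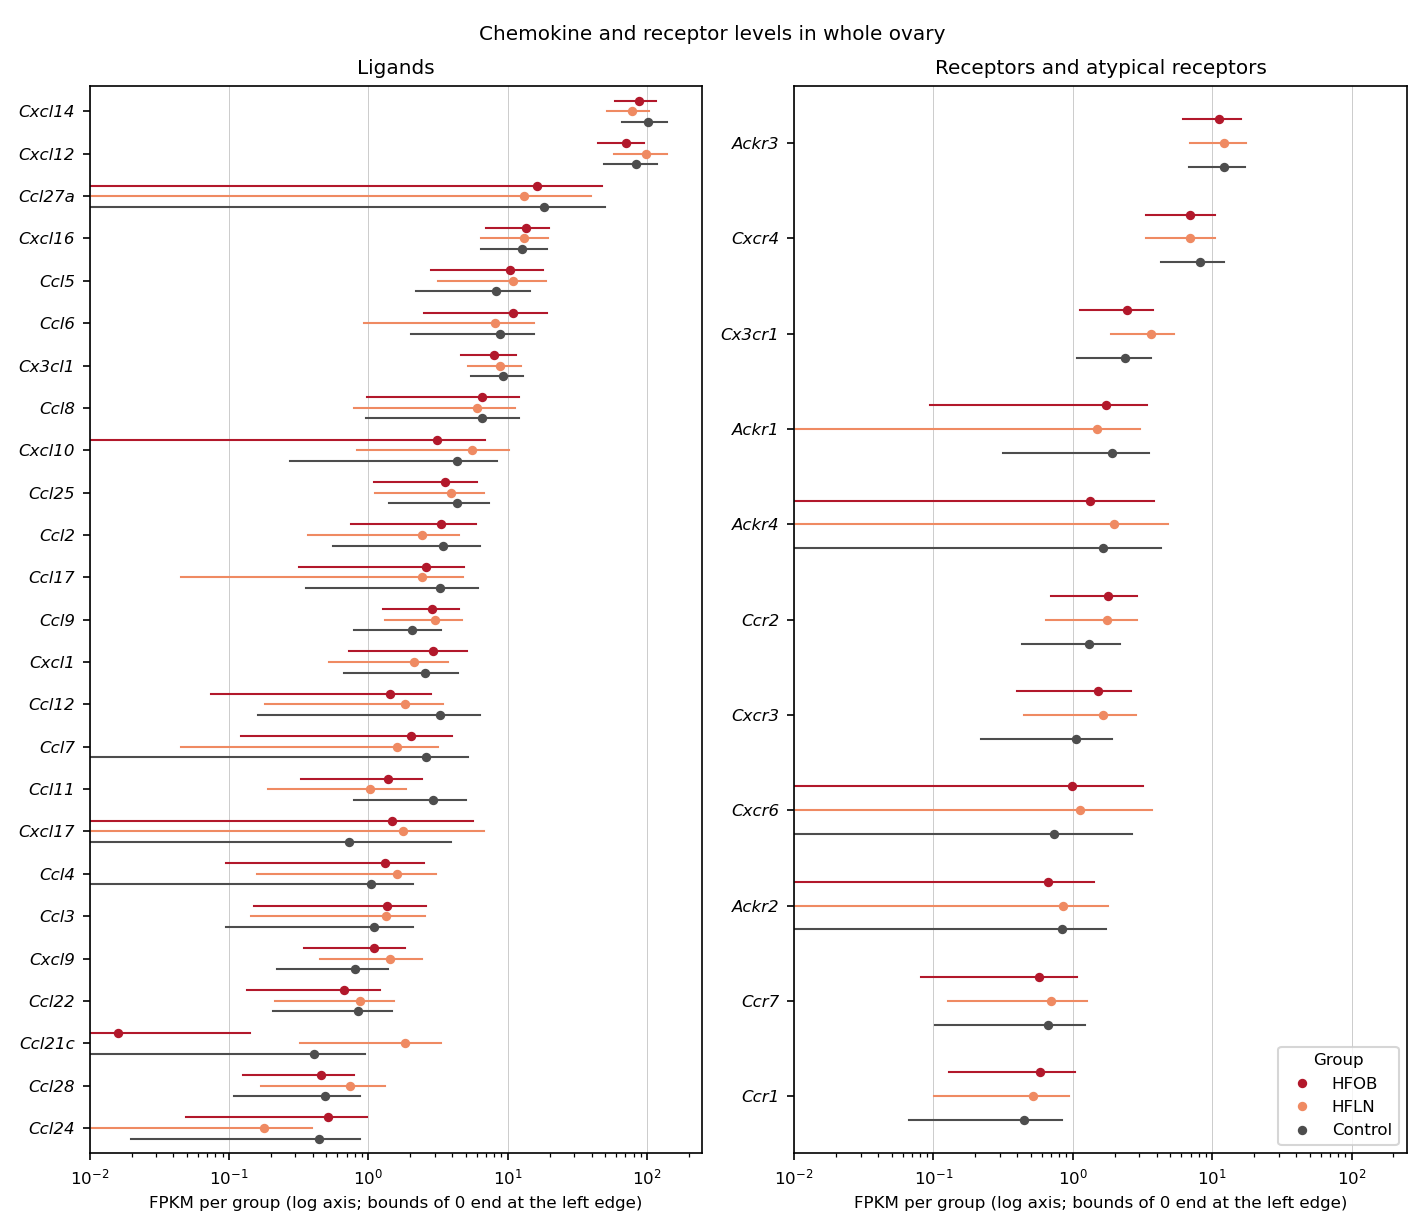
Group FPKM (points, log axis) and deposited interval (lines) of the 25 ligands (left) and of 11 receptors and atypical receptors (right), each ordered by mean level, with HFOB above HFLN and Control. Cxcl14 and Cxcl12 lie above all other members, and the intervals of the groups overlap for every gene drawn except Ccl21c, where HFOB lies below HFLN.

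Below this pair the levels formed a continuous series. By the mean of the groups, 8 members lay between 5 and 20 FPKM, 19 between 1 and 5 and 8 below 1. In none of the 36 pairs of neighbours in this order did the intervals lie apart in every group. The interval was wide: its upper arm measured a median of 77.4% of the value in HFOB, 81.3% in HFLN and 79.4% in Control. For the 10 members averaging at least 5 FPKM these medians were 49.7%, 51.2% and 48.8%. In 11 members the lower bound was 0 in a group or more.

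Cxcl16, a transmembrane ligand of Cxcr6 that also takes up oxidised lipoprotein, had 13.5 FPKM in HFOB (7.04 to 19.9), 13.0 in HFLN (6.44 to 19.6) and 12.7 in Control (6.41 to 19.0). Cx3cl1, the membrane-tethered fractalkine, had 8.01 FPKM in HFOB (4.62 to 11.4), 8.80 in HFLN (5.20 to 12.4) and 9.20 in Control (5.49 to 12.9). For both of these tethered ligands the groups lay close together, within log2 folds of -0.18 to 0.08 in all comparisons. Ccl25, known for guiding Ccr9-bearing cells in thymus and gut, had 3.55 FPKM in HFOB (1.11 to 6.00), 3.93 in HFLN (1.12 to 6.75) and 4.37 in Control (1.41 to 7.32). Ccl27a, a ligand of Ccr10 best known from skin, had 16.3 FPKM in HFOB (0 to 47.2), 13.1 in HFLN (0 to 39.7) and 18.2 in Control (0 to 49.9). The Ccl27a value is uncertain: its row merges another transcript, its exons overlap Il11ra1 on the opposite strand, and its intervals all reach 0.

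Among receptors Ackr3 and Cxcr4, both receptors of Cxcl12, were the most abundant. Ackr3, which takes up Cxcl12 without G-protein signalling, had 11.1 FPKM in HFOB (6.14 to 16.1), 12.2 in HFLN (6.93 to 17.5) and 12.1 in Control (6.84 to 17.3). Cxcr4 had 6.94 FPKM in HFOB (3.35 to 10.5), 6.93 in HFLN (3.32 to 10.5) and 8.22 in Control (4.27 to 12.2). Ackr3 had the order of Cxcl12, highest in HFLN and lowest in HFOB, by small margins, whereas Cxcr4 was highest in Control. Cx3cr1, the fractalkine receptor of monocytes and tissue macrophages, had 2.44 FPKM in HFOB (1.13 to 3.75), 3.61 in HFLN (1.86 to 5.36) and 2.37 in Control (1.07 to 3.67), so it was highest in HFLN with overlapping intervals.

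Receptors of several detected ligands were scarce. Ccr9, the receptor of Ccl25, stood at 0.0761 FPKM in HFOB, 0.06 in HFLN and 0.0537 in Control, and Ccr10, the receptor of Ccl27a, at 0.449, 0.288 and 0.0973 FPKM. The neutrophil receptor Cxcr2 was at 0.0425, 0.0514 and 0.0656 FPKM in HFOB, HFLN and Control, beside its ligand Cxcl1 at 2.91, 2.13 and 2.55 FPKM. Of 9 neutrophil markers 3 reached 0.5 FPKM, and these summed to 3.10, 3.62 and 2.84 FPKM in HFOB, HFLN and Control. Ccr3, the eosinophil receptor of Ccl11, was at 0.0103, 0.0398 and 0.0399 FPKM, and Ccr4, the receptor of Ccl17 and Ccl22, at 0.0179, 0.0587 and 0.0311 FPKM. In whole-organ RNA, fewer cells of a type and less RNA per cell cannot be told apart.

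HFLN mice were compared with Control mice to ask what the diet goes with when obesity is absent. The CC ligands Ccl11 and Ccl12 were lower in HFLN, and Ccl21c and Cxcl17 were higher, by at least 1.5-fold on the log2(FPKM + 1) scale. That scale adds 1 FPKM to each value and understates differences of low genes. Ccl21c reached 0.5 FPKM only in HFLN and was a member through that group alone. Of all 13949 protein-coding rows of at least 0.5 FPKM, 0.731% were past this fold in the higher direction and 1.43% in the lower, and 2 of the 37 members were past it in each. Among background rows averaging less than 5 FPKM, where 27 of the members lie, these shares were 1.15% and 2.22%. No member's intervals lay apart between HFLN and Control, as they did in 0.0932% of all rows, and 0 members were at least 2-fold different with intervals apart (0.086% of rows).

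Ccl11 (chromosome 11, 82057832 to 82062955), the eotaxin that attracts eosinophils through Ccr3, had 1.38 FPKM in HFOB (0.331 to 2.44), 1.03 in HFLN (0.191 to 1.86) and 2.92 in Control (0.793 to 5.04). Control was highest, and both diet groups were lower, with intervals that overlapped those of Control. The log2 fold was -0.95 for HFLN over Control, a plain ratio 2.84-fold lower, and -0.72 for HFOB over Control, 2.11-fold lower. Eosinophil genes were near 0 in these ovaries: Epx, Prg2 and Siglecf, which define that cell, did not exceed 0.133 FPKM in any group. Mast-cell genes were detected, with Cma1 at 3.65, 4.31 and 3.16 FPKM in HFOB, HFLN and Control. Ccl12 (chromosome 11, 82101845 to 82103399), a mouse ligand of the monocyte receptor Ccr2, had 1.44 FPKM in HFOB (0.0742 to 2.81), 1.82 in HFLN (0.181 to 3.46) and 3.27 in Control (0.161 to 6.38). Its log2 fold was -0.60 for HFLN over Control, just past the 1.5-fold line, and -0.81 for HFOB over Control.

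Ccl11 and Ccl12 lie in a block of CC ligand genes on chromosome 11 with Ccl2, Ccl7 and Ccl8. Ccl2, the main monocyte attractant, had 3.33 FPKM in HFOB (0.752 to 5.91), 2.42 in HFLN (0.371 to 4.47) and 3.43 in Control (0.560 to 6.30). Ccl7, which shares Ccr2 with it, had 2.04 FPKM in HFOB (0.123 to 3.96), 1.61 in HFLN (0.0454 to 3.17) and 2.60 in Control (0 to 5.21). Ccl8, in the mouse a ligand of Ccr8, had 6.57 FPKM in HFOB (0.985 to 12.1), 6.01 in HFLN (0.795 to 11.2) and 6.51 in Control (0.963 to 12.1). All 5 genes of the block were lower in HFLN than in Control, with a median log2 fold of -0.47 and a range of -0.95 to -0.10. In HFOB against Control 4 of 5 were lower, with a median of -0.24, and Ccl8 stood at 0.01. All 5 gene intervals overlapped in both comparisons, and both use the same Control value. The block was chosen after the values were seen and holds Ccl11 and Ccl12, so its counts and medians are no separate result. Over all rows 51.2% were higher in HFLN than in Control and 46.8% in HFOB than in Control.

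A second block on chromosome 11 holds Ccl5, Ccl9, Ccl6, Ccl3 and Ccl4. Ccl5, made by T cells and NK cells among others, had 10.4 FPKM in HFOB (2.82 to 18.0), 10.9 in HFLN (3.15 to 18.7) and 8.30 in Control (2.21 to 14.4). Ccl6, a rodent chemokine of myeloid cells, had 10.8 FPKM in HFOB (2.49 to 19.2), 8.15 in HFLN (0.929 to 15.4) and 8.76 in Control (2.01 to 15.5). Ccl9, also of myeloid cells, had 2.87 FPKM in HFOB (1.28 to 4.46), 3.00 in HFLN (1.32 to 4.68) and 2.05 in Control (0.790 to 3.31). Ccl3 and Ccl4, inflammatory ligands of macrophages and lymphocytes, stood between 1.05 and 1.61 FPKM in all groups, and the annotated spans of this pair overlap. In HFOB against Control all 5 genes were higher, at log2 folds of 0.17 to 0.34 with a median of 0.28. In HFLN against Control 4 of 5 were higher, with a median of 0.35, and Ccl6 stood at -0.09. No gene of this block was past 1.5-fold, and all intervals overlapped. This block was also chosen after the values were seen, and the shares over all rows given for the first block apply here too. Whether the blocks differ from each other in their response could not be tested with 1 value per group.

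**Figure D2:**
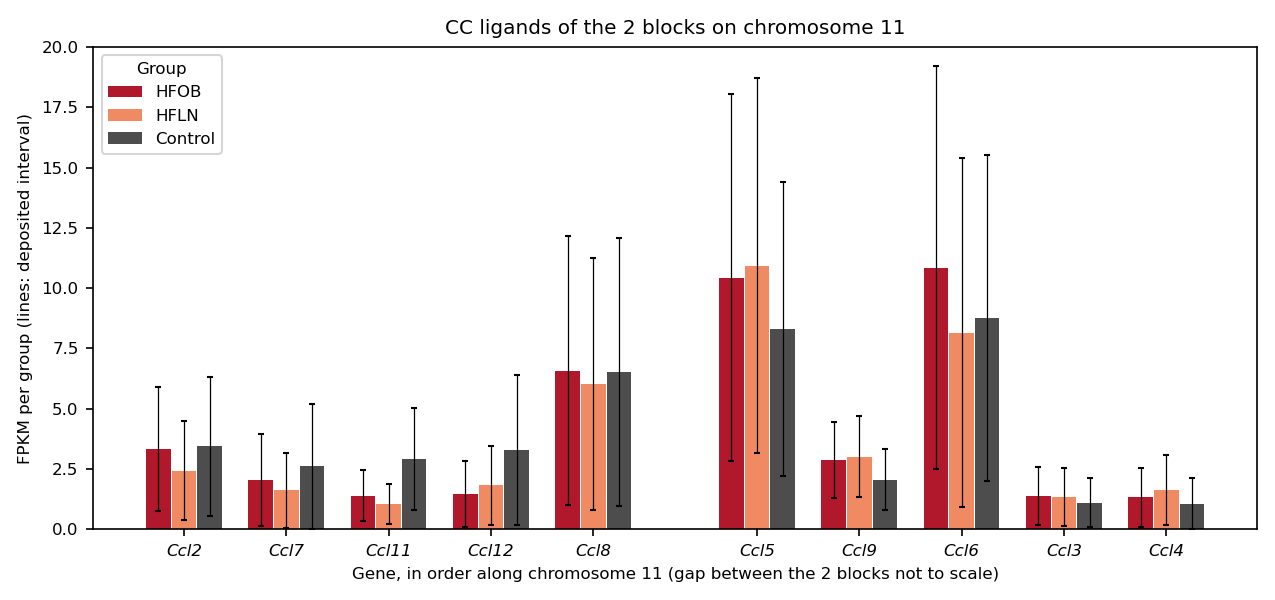
Group FPKM (bars) with the deposited interval (lines) of the 10 CC ligands of the chromosome 11 blocks, in order along the chromosome, for HFOB, HFLN and Control from left to right. Ccl2, Ccl7, Ccl11 and Ccl12 are highest in Control, Ccl5, Ccl9, Ccl3 and Ccl4 are lowest in Control, and all intervals overlap.

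Macrophage and monocyte markers are given beside Ccl11 and Ccl12. Those ligands were picked for their wide folds and the markers were not, so the sizes of the folds are not compared. Csf1r, the receptor for macrophage growth factor, had 12.5, 11.8 and 12.3 FPKM in HFOB, HFLN and Control, and of the 12 macrophage and monocyte markers measured 0 were past 1.5-fold in any comparison. Their summed level was 734, 601 and 630 FPKM in HFOB, HFLN and Control, and the row of the lysozyme genes Lyz1 and Lyz2 made up 337, 236 and 252 FPKM of it. The row of Cd68, which is merged with Eif4a1, made up 92.4, 91.0 and 92.7 FPKM of it. The part of cell number in the differences of Ccl11 and Ccl12 was not tested.

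Cxcl17, a mucosal chemokine, had 1.48 FPKM in HFOB (0 to 5.66), 1.76 in HFLN (0 to 6.78) and 0.733 in Control (0 to 3.91), and its log2 fold was 0.67 for HFLN over Control. Every interval of Cxcl17 reached 0. Genes of oviduct-type epithelium were also higher in HFLN than in Control in 6 of 6 cases, with a median log2 fold of 0.68, and their part in the Cxcl17 value was not tested. In HFOB all 6 were lower than in Control, with a median log2 fold of -0.29, and Cxcl17 had a log2 fold of 0.52 over Control. Ccl28, a mucosal ligand of Ccr10, had 0.456 FPKM in HFOB, 0.740 in HFLN and 0.490 in Control.

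Signalling receptors were mostly higher in HFLN than in Control, at 7 of 8 members with a median log2 fold of 0.28, and none was past 1.5-fold, although Cx3cr1 and Cxcr3 were with 0.1 FPKM added in place of 1. Ccr2, the receptor of inflammatory monocytes, had 1.80 FPKM in HFOB (0.693 to 2.91), 1.77 in HFLN (0.643 to 2.90) and 1.31 in Control (0.431 to 2.18). Cxcr3 and Cxcr6, carried by effector T cells and NK cells, were at 1.51 and 0.990 FPKM in HFOB, 1.64 and 1.13 in HFLN and 1.06 and 0.735 in Control. These 3 receptors were lowest in Control, and their intervals overlapped throughout. The exception in HFLN was Cxcr4, the most abundant signalling receptor, at a log2 fold of -0.22.

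T-cell and NK-cell markers, at a similar low level, were also higher in HFLN than in Control, and so were markers of several other immune cells. Of those of at least 0.5 FPKM, 4 of 4 mast-cell and 3 of 3 neutrophil markers were higher. So were 4 of 5 dendritic-cell, 2 of 3 B-cell and 5 of 12 macrophage and monocyte markers. Of the neutrophil markers below 0.5 FPKM, Retnlg and Ngp were higher in HFLN than in Control, and Ly6g, Mpo, Elane and Camp were lower. The 7 T-cell markers of at least 0.5 FPKM in a group summed to 6.80, 8.22 and 6.13 FPKM in HFOB, HFLN and Control. Of these, 7 of 7 were higher in HFLN than in Control and 5 of 7 in HFOB than in Control. Cd3e and Cd8b1 reached 0.5 FPKM only in HFLN and Cd3d only in HFOB, so that minimum favoured those groups. The 4 NK-cell markers of at least 0.5 FPKM summed to 2.80, 3.27 and 2.43 FPKM, with 4 of 4 higher in HFLN than in Control and 3 of 4 in HFOB than in Control. Over all rows, 51.2% were higher in HFLN than in Control and 46.8% in HFOB than in Control. None of these markers was past 1.5-fold, and their part in the receptor values was not tested.

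HFOB mice were compared with the same Control mice to ask about diet with obesity. Ccl11 and Ccl12, given above, were lower in HFOB by at least 1.5-fold, and 0 members were higher by that much. With 0.1 FPKM added in place of 1, Cxcl17 was past 1.5-fold in the higher direction and Ccl21c in the lower. Among all protein-coding rows 1.38% were past 1.5-fold in the lower direction and 0.265% in the higher. Among those averaging less than 5 FPKM the shares were 1.83% and 0.463%. No member had intervals apart (0.172% of rows). Adipocyte markers summed to 203, 129 and 131 FPKM in HFOB, HFLN and Control, and their part in the members' values was not tested. Fabp4 made up 139, 87.2 and 77.2 FPKM of that sum. Of the 6 adipocyte markers 4 were higher in HFOB than in Control, and 2 (Plin1 and Retn) were lower. Of the members 17 were higher and 20 lower, with a median log2 fold of -0.03 against -0.01 over all rows. In HFLN against Control 22 were higher and 15 lower, with a median of 0.03 against 0.004 over all rows. The interquartile range of the members' log2 folds ran from -0.22 to 0.17 in HFOB over Control and from -0.22 to 0.29 in HFLN over Control. Over all rows it ran from -0.10 to 0.08 and from -0.10 to 0.10.

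**Figure D3:**
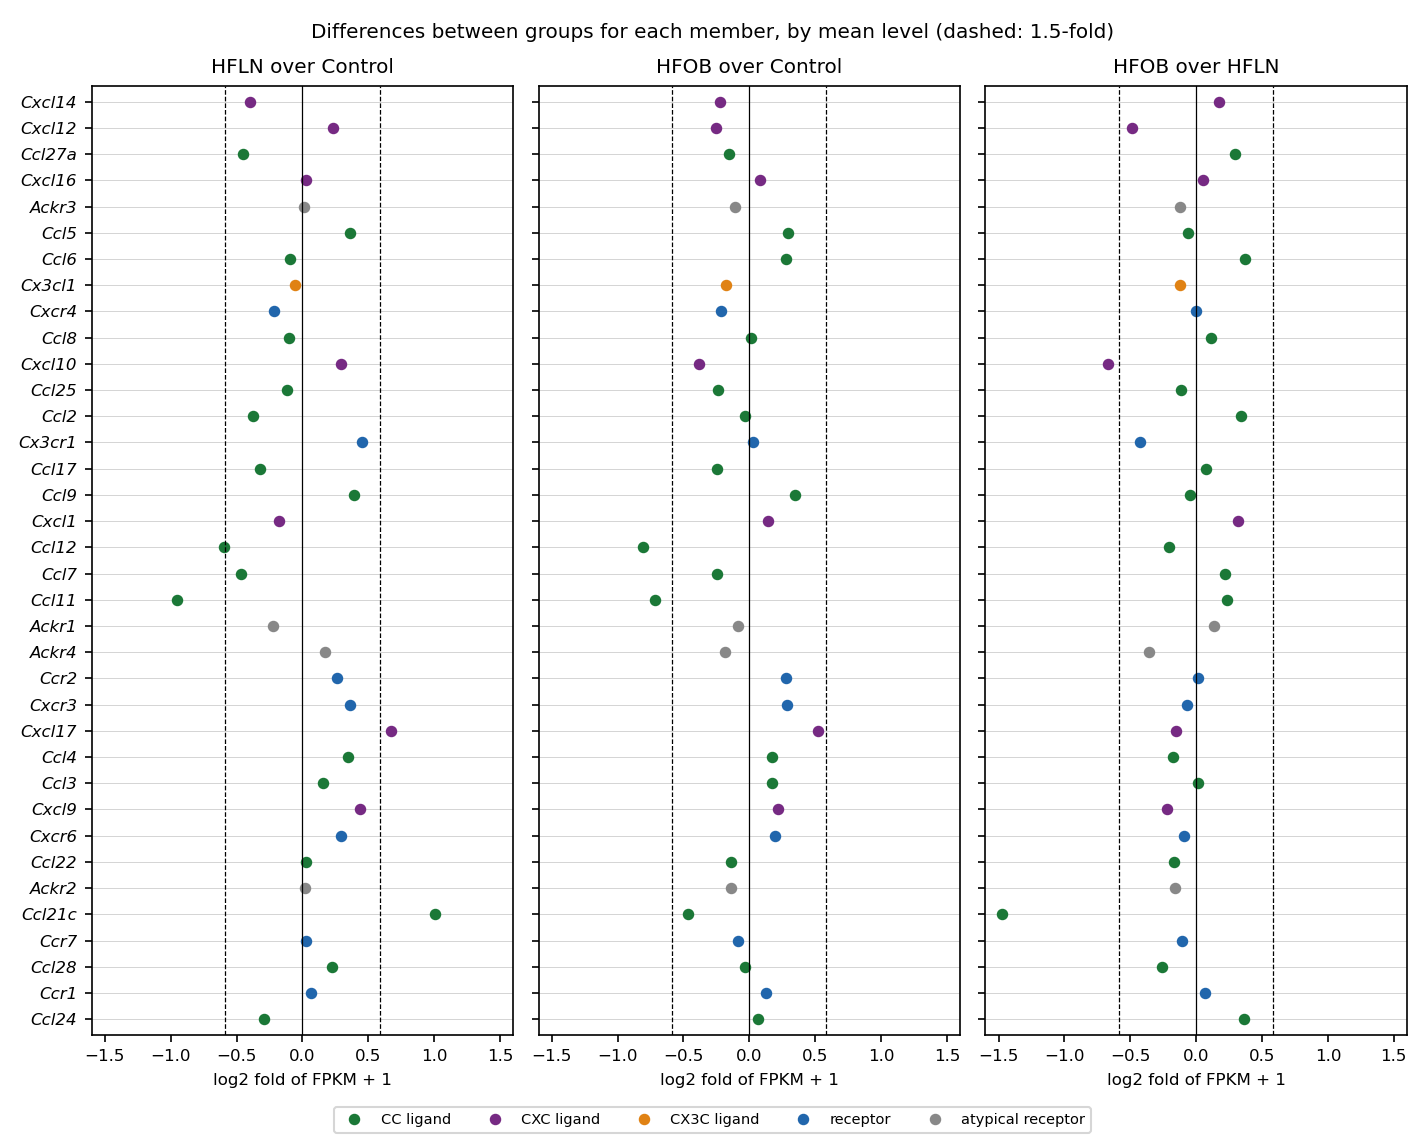
Log2 fold on the FPKM + 1 scale (horizontal axis) of 36 members, ordered from the highest mean level at the top, for HFLN over Control, HFOB over Control and HFOB over HFLN, coloured by class, with dashed lines at 1.5-fold. Ccl11 and Ccl12 lie left of the line in both comparisons with Control, Ccl21c and Cxcl17 lie right of it in HFLN over Control, and Ccl21c and Cxcl10 lie left of it in HFOB over HFLN.

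The rows of the atypical receptors were lower in HFOB than in Control in 4 of 4 cases, by log2 folds of -0.19 to -0.09. The value of -0.09 came from the Ackr1 row, which is merged with Cadm3. All intervals overlapped, and over all rows 46.8% were higher in HFOB than in Control. Ackr4, which removes Ccl21 and Ccl25, had 1.33 FPKM in HFOB, 1.98 in HFLN and 1.65 in Control, with lower bounds of 0 throughout. Ackr2, a scavenger of inflammatory CC ligands, had 0.660, 0.854 and 0.833 FPKM in HFOB, HFLN and Control. Ackr1, which carries chemokines across venules, shares its row with Cadm3, so its 1.74, 1.49 and 1.91 FPKM in HFOB, HFLN and Control cannot be assigned to it. Markers of blood endothelium summed to 107, 113 and 118 FPKM. Exons of Ackr4, Ccl25, Cx3cr1 and Cxcl16 overlap a gene on the opposite strand, and whether the counting used strand is not stated in these sources.

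HFOB and HFLN mice, which ate the same diet, were compared to ask what goes with obesity. Cxcl10 and Ccl21c were lower in HFOB by at least 1.5-fold, and 0 members were higher by that much, where 1.84% and 0.38% of all rows passed. Among rows averaging less than 5 FPKM, as Cxcl10 and Ccl21c do, these shares were 3.97% and 0.877%. With 0.1 FPKM added in place of 1, Ccl24 was past 1.5-fold in the higher direction and Ccl28 in the lower. Ccl24 reached 0.5 FPKM only in HFOB, and Ccl28 and Ccl21c only in HFLN, so each was a member only through its higher group. Cxcl10 (chromosome 5, 92346638 to 92348889), an interferon-inducible attractant of T cells that acts through Cxcr3, had 3.10 FPKM in HFOB (0 to 6.82), 5.51 in HFLN (0.826 to 10.2) and 4.32 in Control (0.272 to 8.38). Its log2 fold was -0.67 for HFOB over HFLN, and the intervals overlapped. Cxcl9, the neighbouring ligand of the same receptor, had 1.09 FPKM in HFOB (0.346 to 1.84), 1.44 in HFLN (0.452 to 2.43) and 0.803 in Control (0.220 to 1.39). Both ligands were thus highest in HFLN, and Cxcl10 was lowest in HFOB whereas Cxcl9 was lowest in Control.

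Other genes of the interferon list, which also holds interferon receptors, were lower in HFOB than in HFLN in 11 of 12 cases. Their median log2 fold was -0.48, and 5 were past 1.5-fold in that direction. For each of these 5 the intervals of HFOB and HFLN overlapped. Irf7, a transcription factor of the interferon response, stood at 12.8 FPKM in HFOB, 27.2 in HFLN and 14.3 in Control. Ifit1, an interferon-induced sensor of viral RNA, stood at 2.85, 6.50 and 3.03 FPKM. Ifng itself was at 0.0322, 0.129 and 0.0557 FPKM. Cxcl10 carries an interferon-type and NF-kB-type pattern in the window printed above, and Cxcl9 carries neither.

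**Figure D4:**
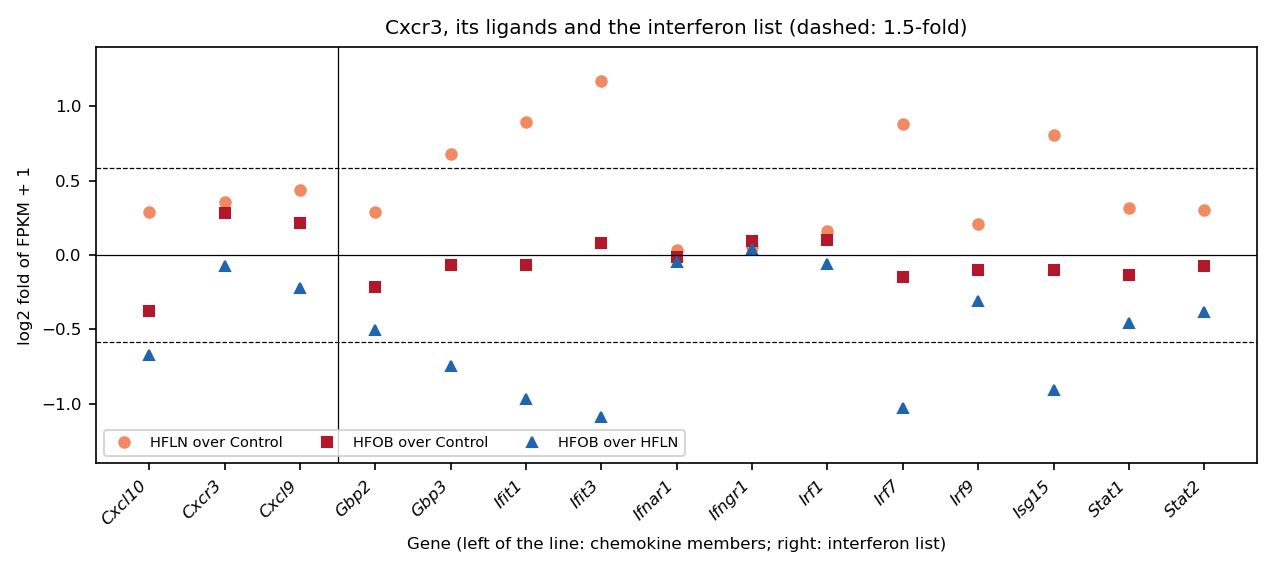
Log2 fold on the FPKM + 1 scale (vertical axis) of Cxcl10, Cxcr3 and Cxcl9 (left of the vertical line) and of the 12 interferon-list genes of at least 0.5 FPKM (right of it), in the comparisons HFLN over Control (circles), HFOB over Control (squares) and HFOB over HFLN (triangles), with dashed lines at 1.5-fold. Cxcl10 and Cxcl9 lie above 0 in HFLN over Control and below 0 in HFOB over HFLN, as do Irf7, Isg15, Ifit1, Ifit3 and Gbp3 with wider folds.

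Ccl21c, a copy of the Ccl21 gene that draws Ccr7-bearing cells to lymphatic vessels and lymph nodes, had 0.0160 FPKM in HFOB (0 to 0.141), 1.82 in HFLN (0.322 to 3.32) and 0.405 in Control (0 to 0.953). It was the 1 member with intervals apart in any comparison, HFOB lying below HFLN, as 0.043% of all rows were apart in either direction. It was also the 1 member at least 2-fold different with intervals apart in that comparison (0.0358% of rows). The log2 fold was -1.47 for HFOB over HFLN, 1.01 for HFLN over Control and -0.47 for HFOB over Control. This value is uncertain, because the gene has near-identical copies, lies on an unlocalised scaffold of chromosome 4, and has further rows listed at 0 in every group. Ccl21c also reached 0.5 FPKM only in HFLN, so it was a member only through the group where it was highest. Its receptor Ccr7 stood at 0.574, 0.700 and 0.668 FPKM in HFOB, HFLN and Control. Markers of lymphatic endothelium, a source of Ccl21, summed to 57.4, 59.8 and 57.6 FPKM, and Madcam1 and Glycam1 of lymph-node vessels did not exceed 0.127 FPKM.

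Of the remaining ligands, Ccl17 had 2.61, 2.42 and 3.27 FPKM in HFOB, HFLN and Control, and Ccl22, which shares Ccr4 with it, had 0.672, 0.876 and 0.844 FPKM. Dendritic-cell markers, of a cell known to make both, summed to 12.1, 12.1 and 11.1 FPKM. Zbtb46 made up 7.67, 7.40 and 7.42 FPKM of that sum, with an interval of 0 to 15.3 in HFOB. Ccl24, another eotaxin, had 0.514, 0.178 and 0.444 FPKM. The receptor Ccr1 of Ccl3, Ccl5, Ccl6 and Ccl9 had 0.585, 0.516 and 0.449 FPKM. Over all 37 members the median log2 fold of HFOB over HFLN was -0.07, with 16 higher and 21 lower, against -0.01 over all rows.

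Of 11 further ligands, receptors and processing genes of at least 0.5 FPKM, 0 were past 1.5-fold in any comparison, among them the platelet chemokine Pf4 at 14.0, 11.1 and 15.3 FPKM in HFOB, HFLN and Control. Of 24 genes that carry signals from chemokine receptors, 0 were past it either, and the row of Gnai2, the inhibitory G-protein subunit, had 213, 219 and 233 FPKM together with Gnat1. Among 17 NF-kB and inflammatory genes, 0 were higher by 1.5-fold and Il6 was lower in HFLN than in Control, at 0.312 against 1.11 FPKM. Il6 and Il1b were lower in HFOB than in Control, at 0.192 against 1.11 FPKM and 1.37 against 3.22 FPKM. Il6 reached 0.5 FPKM only in Control, so it was counted only through the group where it was highest. Its lower bound was 0 in every group, and the intervals of Il6 and Il1b overlapped in these comparisons. Of 7 genes of chemokine-binding proteoglycans and of hypoxia, 7 were lower in HFLN than in Control and 7 in HFOB than in Control, 3 of them past 1.5-fold in each. These 3 were Sdc1, Adm and Slc2a1, with intervals that overlapped those of Control, and both comparisons use the same Control value. Over all rows 51.2% were higher in HFLN than in Control and 46.8% in HFOB than in Control. Past 1.5-fold in the lower direction were 1.43% and 1.38% of rows. Sdc1, a cell-surface proteoglycan that binds chemokines, had 58.5 FPKM in HFOB, 61.1 in HFLN and 98.6 in Control.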

How the data were processed

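Cuffdiff 2.2.1.3, Cufflinks 2.2.1.0, TopHat2 2.1.0 and Trimmomatic 0.32.3 were used with build mm10, per the submitters' processing notes. Per the file headers, the deposited table holds the authors' FPKM, 1 value per group of 3 animals. The deposited lower and upper bounds are also in FPKM. Depth is unknown. Not given in the sources used here: the scaling between libraries, the strand setting and the annotation.

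RefSeq identifiers took symbols from the GRCm38.p6 annotation (99.2% of 36886 matched), and each symbol took its row of highest mean FPKM. Folds were computed with pandas 2.3.3 on log2(FPKM + 1), and the fold call was tested on simulated data. The background was 13949 distinct rows of protein-coding symbols of at least 0.5 FPKM with status OK, the level that admits members.

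Full values were given for the 12 most abundant members, those past 1.5-fold and their receptors. At most the 3 widest and 3 most abundant genes of other lists were to be named. Epx, Prg2, Siglecf, Csf1r, Ifng, Isg15, Gbp3, Madcam1, Glycam1, Cd3e, Cd3d, Cd68 and the other members were added after values were seen. Members and lists were chosen with earlier results of these data known, and the blocks on chromosome 11 after the values were seen. The values of 1 member that enters the counts are not reported here. Promoter windows were searched as described. The alternatives tried were another pseudocount, minimum, fold, row choice and scaling.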

Additional observations from a re-analysis of the deposited data

How the results depend on the processing

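No paired analysis was possible because the table holds 1 value per group, so animals sharing a replicate number could not be matched, and leaving out an animal was likewise not possible. With a pseudocount of 0.1 FPKM, 9 members were past 1.5-fold in HFLN over Control in place of 4 (5 higher and 4 lower, in place of 2 and 2). In each of HFOB over Control and HFOB over HFLN, 4 were past it in place of 2 (1 higher and 3 lower, in place of 0 and 2); the higher one was Cxcl17 in HFOB over Control and Ccl24 in HFOB over HFLN. With a fold of at least 2, 1 member was past it in HFLN over Control (Ccl21c), 0 in HFOB over Control and 1 in HFOB over HFLN (Ccl21c). With a fold of at least 1.5 and intervals apart, the counts were 0, 0 and 1. Shares over all rows at these settings are not given, so these counts have no background beside them. A smaller pseudocount widens the folds of all low genes. Without Ccl27a, Ackr1 and Ccl21c, a choice made after seeing the data, 1 member (Cxcl10) was past 1.5-fold in HFOB over HFLN. The minimum of 1 FPKM, no minimum, summed rows and rescaled groups left each count within 1.5 times of its first value. Medians over the members moved by less than 0.1 in the log2 fold under the alternatives run, and 0 changed sign. With the pseudocount of 0.1 FPKM the log2 fold of Ccl21c was -4.05 in HFOB over HFLN and -2.12 in HFOB over Control, against -1.47 and -0.47. The rescaling itself shifted HFLN by -0.016 and HFOB by -0.019 in log2 against Control. Low levels limit most members, since 27 of 37 average under 5 FPKM and the depth behind them is unknown.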
